A study of Mus musculus with 17 samples.

Results

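UDP-glycosyltransferases (UGT enzymes) of the Ugt1a, Ugt2b and Ugt3a families were followed in whole-kidney RNA of 17 mice. The list was selected on gene symbols, with the differences in read counts between the groups already known from earlier results of these mice, and the 10 listed genes were all found among the 22558 genes used. They were *Ugt1a1*, *Ugt1a2*, *Ugt1a6a*, *Ugt1a7c*, *Ugt1a9*, *Ugt1a10*, *Ugt2b35*, *Ugt2b38*, *Ugt3a1* and *Ugt3a2*. Because the choice was made with the group differences in view, the differences of these genes are given below as a description and carry no test of their own.

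The Ctrl group held 5 male C57BL/6 mice with the genotype WT, which received saline. The Case group held 6 male db/db mice (BKS.Cg-Dock7m +/+ Leprdb/J), which lack a working leptin receptor and develop obesity and diabetes, and which also received saline. The Dapa group held 6 male db/db mice given dapagliflozin, which blocks SGLT2 (*Slc5a2*), the main carrier for glucose reabsorption, at 1 mg/kg per day by gavage. Treatment began at 8 weeks of age and lasted 6 weeks in all mice. The Ctrl mice differed from the db/db mice in strain background as well as in genotype and diabetes, and these cannot be told apart in any comparison with Ctrl. One library was made per mouse, so the spread given is that between mice.

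UGT enzymes join a sugar to small molecules such as bilirubin, steroids, phenols and drugs, which makes them more soluble and ready for export in bile or urine. Most use glucuronic acid from UDP-glucuronate, which the enzyme encoded by *Ugdh* makes from UDP-glucose. The kidney is, with the liver and the gut, one of the organs with the highest activity, mainly in the proximal tubule, and in people dapagliflozin itself is inactivated mainly by UGT1A9. UGT3A enzymes are not glucuronosyltransferases in the strict sense, since the human enzymes use UDP-N-acetylglucosamine or UDP-glucose and UDP-xylose in place of UDP-glucuronate.

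The Ugt1a genes are one locus. Each has its own promoter and its own first exon, which encodes the part of the enzyme that binds the substrate, and all are spliced to the same remaining exons. In the GENCODE annotation of GRCm38 (mm10), the build of the deposited table, the locus lies on the plus strand of chromosome 1 from 88055388 to 88220002 and carries 9 rows of the table. The first exons follow each other in the order *Ugt1a10*, *Ugt1a9*, *Ugt1a8*, *Ugt1a7c*, *Ugt1a6b*, *Ugt1a6a*, *Ugt1a5*, *Ugt1a2* and *Ugt1a1*. That of *Ugt1a10* starts at 88055411 and ends 158707 bases before the first common exon, while that of *Ugt1a1* starts at 88211959 and ends 2172 bases before it. The common exons start at 88215044, 88215795, 88216138 and 88218127. The first 3 of them are 132, 88 and 220 bases long, and all rows share at least 871 bases of the last one.

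The junction of first and common exon is shown for the 6 listed Ugt1a genes, as the place where the transcripts, which differ in their first exons, join the common exons. Each sequence gives the last 24 bases of the first exon in lower case and the first 24 bases of the common exon (88215044 to 88215067) in capitals, 5′ to 3′ on the plus strand, from the GENCODE transcripts of GRCm38.
Ugt1a10: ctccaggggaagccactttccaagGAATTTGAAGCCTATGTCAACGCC
Ugt1a9: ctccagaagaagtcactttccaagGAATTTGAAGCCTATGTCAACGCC
Ugt1a7c: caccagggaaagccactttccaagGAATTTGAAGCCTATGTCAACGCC
Ugt1a6a: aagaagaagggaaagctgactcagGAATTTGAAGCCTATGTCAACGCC
Ugt1a2: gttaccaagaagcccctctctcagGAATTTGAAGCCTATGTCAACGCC
Ugt1a1: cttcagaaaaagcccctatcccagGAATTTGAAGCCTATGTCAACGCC
The capital letters were the same in all 6, and the lower-case parts all differed, with 8 to 22 of 24 bases alike between any pair of genes.

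**Figure D1:**
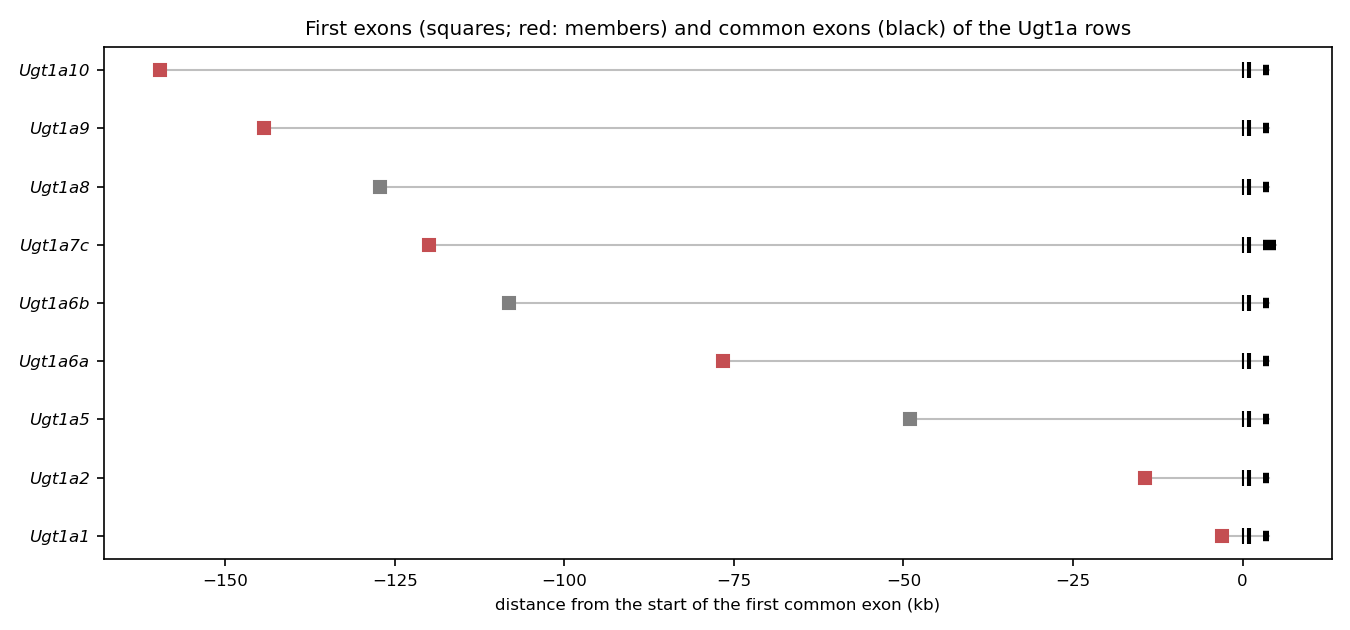
Map of the 9 Ugt1a rows along the locus, as distance in kb from the start of the first common exon, with squares for first exons (red for the listed genes, grey for the other rows) and black marks for common exons. The last exon of *Ugt1a7c* runs 998 bases further than that of any other row.

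A read from the common exons fits every Ugt1a row, and how the authors' counting divided such reads is not given in the sources used here. Of all stretches of 50 bases in its annotated transcripts, 63.7% occurred in another gene as well for *Ugt1a2*, 63.0% for *Ugt1a10*, 62.0% for *Ugt1a9*, 58.2% for *Ugt1a1*, 53.7% for *Ugt1a7c* and 52.1% for *Ugt1a6a*. The row of *Ugt1a7c* had a further feature, since it ended at 88220002 and the other 8 rows at 88219004 or before. Of the annotated transcripts of *Ugt1a7c*, 1 also included an exon of *Ugt1a6a* that lies upstream of the common exons. The first exons themselves were far more distinct, with 7.87% of the stretches of *Ugt1a2* found in *Ugt1a5*, 6.14% of those of *Ugt1a9* in *Ugt1a10* and none of those of *Ugt1a1* in any other row, but 47.4% of those of *Ugt1a6a* in *Ugt1a6b*. Values of single Ugt1a rows are therefore uncertain in how reads were split between them, and their part in the differences below was not tested.

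The other genes lay elsewhere. *Ugt2b35* (87000860 to 87013275, plus strand) and *Ugt2b38* (87409942 to 87424203, minus strand) are on chromosome 5, in a family whose enzymes act on steroids and bile acids. *Ugt3a1* (9273319 to 9315032) and *Ugt3a2* (9335550 to 9370955) are neighbours on the plus strand of chromosome 15. Stretches shared with other genes made up 37.4% in *Ugt2b38*, mostly with *Ugt2b5* and *Ugt2b37*, 7.60% in *Ugt3a1*, 7.01% in *Ugt3a2* and 0.303% in *Ugt2b35*.

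Library totals ran from 13039535 to 17779635 counts. Mitochondrial genes took 17.9% to 20.4% of them in Ctrl, 19.8% to 27.3% in Case and 19.7% to 27.6% in Dapa. Summed FPKM of 10 proximal tubule markers was 3089 to 3723 in Ctrl, 1892 to 3182 in Case and 1956 to 2950 in Dapa, so the tissue was kidney and these markers ran lower in the db/db mice. Of 9 liver markers in the table, summed FPKM was 19.3 to 31.3 in Ctrl, 25.8 to 53.8 in Case and 22.7 to 35.9 in Dapa, and none of them was called in any comparison. In 8 libraries (4 Ctrl, 1 Case and 3 Dapa) the FPKM values and the counts of 3 genes with broken entries did not match, and what sets these libraries apart is not known.

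Levels are given in FPKM, that is reads scaled to gene length and library total, so that genes can be compared with each other. In Ctrl kidneys the listed genes spanned a wide range. *Ugt2b38* was highest (median 851 FPKM), followed by *Ugt3a2* (362), *Ugt1a7c* (138) and *Ugt3a1* (50.5), and each of these 4 lay above the next in all 5 mice without overlap. Below them, *Ugt1a1* (7.07), *Ugt1a10* (6.30), *Ugt1a2* (5.65) and *Ugt1a6a* (3.25) overlapped with their neighbours in that order. *Ugt1a9* (0.0562) and *Ugt2b35* (0) were at or near 0.

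In Case kidneys that order was compressed. *Ugt2b38* (median 193 FPKM), *Ugt3a2* (158), *Ugt1a2* (147), *Ugt1a7c* (85.0) and *Ugt1a1* (66.9) followed each other, and every neighbouring pair overlapped. *Ugt1a2* stood at place 3 in Case and 7 in Ctrl. *Ugt1a10* (22.1), *Ugt3a1* (21.3), *Ugt1a6a* (12.97) and *Ugt1a9* (9.81) came next, again with overlap, and *Ugt2b35* (0.00837) stayed near 0. In Dapa kidneys the genes stood in the same order as in Case, from *Ugt2b38* (230) over *Ugt3a2* (132), *Ugt1a2* (80.1), *Ugt1a7c* (73.1), *Ugt1a1* (45.9), *Ugt1a10* (14.7), *Ugt3a1* (14.3), *Ugt1a6a* (9.82) and *Ugt1a9* (2.52) to *Ugt2b35* (0), and only the step to *Ugt2b35* was free of overlap.

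**Figure D2:**
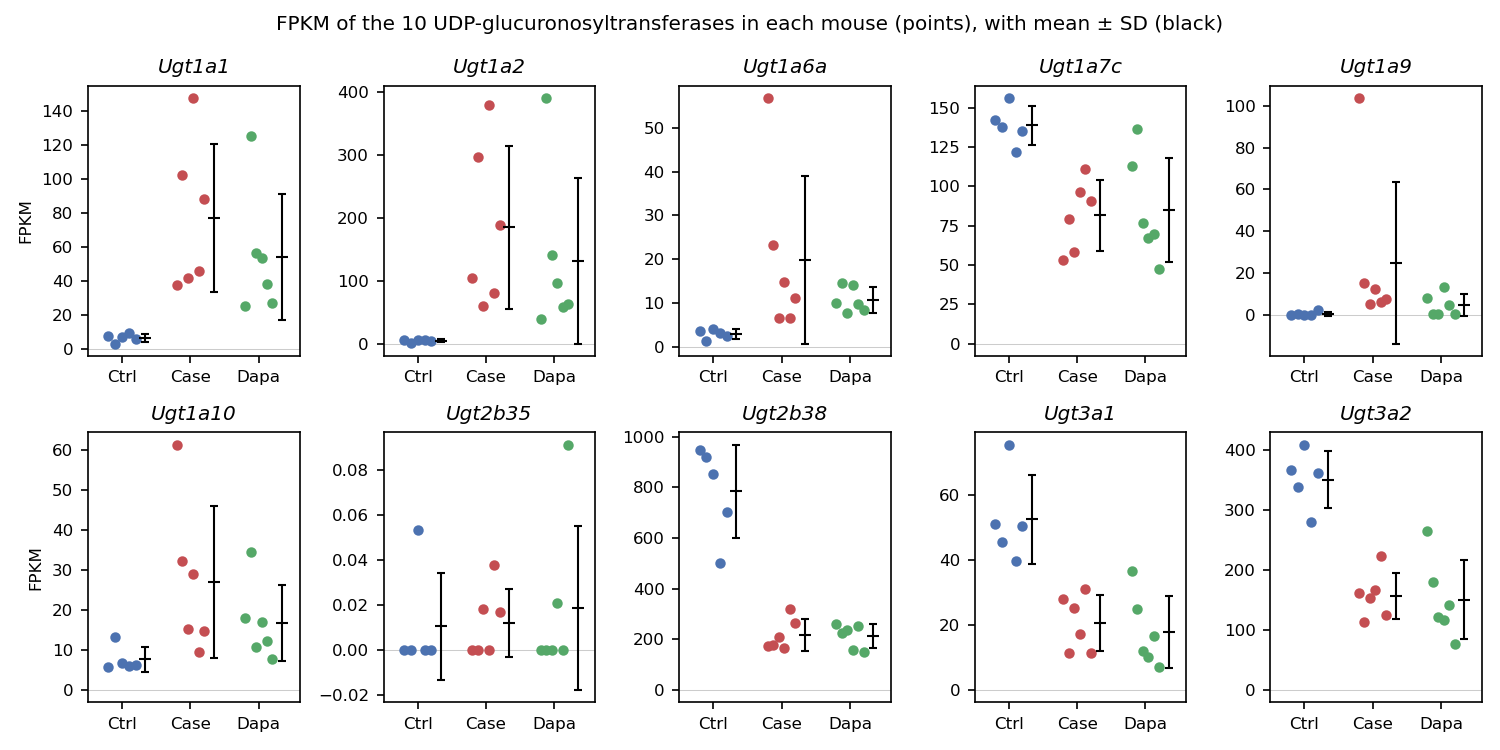
FPKM of each of the 10 genes in each mouse (points, Ctrl blue, Case red, Dapa green) with mean ± SD (black), each panel on its own linear axis. *Ugt1a1* and *Ugt1a2* were higher in every db/db mouse than in any Ctrl mouse, while *Ugt2b38*, *Ugt3a1* and *Ugt3a2* were lower in every db/db mouse.

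The comparison of Case with Ctrl asks how diabetic kidneys differ from healthy ones. Of the 10 genes 9 passed the filter on low counts, and the differences below are log2 fold changes of counts with their standard errors from edgeR's quasi-likelihood fit across all 14582 genes tested. In that fit 5 of the 9 were called higher in Case and 4 lower at an adjusted p under 0.05, where 6.09% of all tested genes were called higher and 6.91% lower. In FPKM the groups did not overlap for 4 genes that were higher and 4 that were lower, against 4.97% and 3.46% of all tested genes. As the genes were chosen with these differences known, nothing is read from the counts or from the median that follows. The median of the 9 log2 fold changes was 1.73, and that of all genes tested was 0.0309.

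*Ugt1a1* encodes the enzyme that glucuronidates bilirubin. It measured 7.39, 3.18, 7.07, 9.15 and 5.65 FPKM in the 5 Ctrl mice. In Case it ranged from 37.6 over a median of 66.9 to 147 FPKM. All 6 Case mice lay above all Ctrl mice, and the log2 fold change was 3.50 ± 0.42 (SE), about 11.3-fold.

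*Ugt1a2*, whose first exon lies just upstream of that of *Ugt1a1*, had the largest log2 fold change of the 9 after *Ugt1a9*. It measured 6.66, 0.744, 6.60, 5.65 and 5.17 FPKM in the Ctrl mice. In Case the lowest value was 60.3, the median 147 and the highest 380 FPKM. The lowest Case mouse was thus far above the highest Ctrl mouse, and the log2 fold change was 5.15 ± 0.65 (SE), or 35.4-fold. *Ugt1a1* and *Ugt1a2* had the same 3 highest Case mice, Case 4, Case 2 and Case 6 in that order.

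*Ugt1a6a* encodes an enzyme for small flat phenols and is a textbook target of the aryl hydrocarbon receptor. It measured 3.69, 1.23, 4.03, 3.25 and 2.47 FPKM in the Ctrl mice and 6.48 to 56.8 FPKM in Case (median 12.97). Every Case mouse was above every Ctrl mouse, with 1 mouse, Case 1, well above the other 5. The log2 fold change was 2.68 ± 0.57 (SE), and it was 2.00 without Case 1.

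*Ugt1a9* encodes an enzyme for bulky phenols and many drugs. In the Ctrl mice it had 2, 4, 1, 0 and 77 counts, or 0.0562, 0.111, 0.0272, 0 and 2.23 FPKM. In Case it had 185 to 3231 counts, with 5.18 FPKM at the lowest, 9.81 at the median and 104 at the highest. Ctrl 5 and Case 1 each stood apart within their group, and all 6 Case mice were above Ctrl 5. The log2 fold change was 5.63 ± 1.21 (SE), 8.81 without Ctrl 5 and 4.18 without Case 1, so the size of this difference rests on single mice while its direction held in all of these fits. Case 1 was the only Case library among the 8 with mismatched entries, and with a term for those 8 libraries the value was 5.57.

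*Ugt1a10*, which in people is known from the gut more than from the liver, measured 5.88, 13.3, 6.91, 6.13 and 6.30 FPKM in the Ctrl mice. In Case the range was 9.65 to 61.4 FPKM with a median of 22.1. Here the groups overlapped, since Ctrl 2 was above the lowest Case mouse, and 5 of 6 Case mice exceeded all Ctrl mice. The log2 fold change was 1.73 ± 0.43 (SE). It was lower, at 1.295, without Case 1, the mouse that was also highest in *Ugt1a6a* and *Ugt1a9*, and the call was lost without Ctrl 1 (adjusted p = 0.0560), Ctrl 3 (adjusted p = 0.0575) or Ctrl 5 (adjusted p = 0.0585) in edgeR's fit.

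*Ugt1a7c* went the other way from the remaining listed Ugt1a genes. It measured 142, 138, 156, 122 and 135 FPKM in the Ctrl mice and 53.4 to 111 FPKM in Case (median 85.0). All Case mice were below all Ctrl mice, and the log2 fold change was -0.84 ± 0.19 (SE), about 1.79-fold lower. This is the row with the longer last exon described above.

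*Ugt2b38* was the most abundant listed gene in every group by its median. It measured 946, 918, 851, 501 and 701 FPKM in the Ctrl mice and 165 to 320 FPKM in Case (median 193). No Case mouse reached the lowest Ctrl mouse, and the log2 fold change was -1.93 ± 0.22 (SE), or 3.80-fold lower.

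*Ugt3a1* measured 51.1, 45.4, 75.4, 39.8 and 50.5 FPKM in the Ctrl mice and 11.3 to 31.0 FPKM in Case (median 21.3). Its neighbour *Ugt3a2* measured 367, 339, 409, 280 and 362 FPKM in the Ctrl mice and 113 to 224 FPKM in Case (median 158). In both genes the groups were apart, with log2 fold changes of -1.43 ± 0.27 (SE) for *Ugt3a1* and -1.24 ± 0.17 (SE) for *Ugt3a2*.

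*Ugt2b35* did not pass the filter. It had 0 counts in 4 Ctrl mice and 3 in the other, 0 to 2 counts in Case and 0 to 4 in Dapa, so no difference could be measured at this depth.

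Proximal tubule markers were read beside the lower genes. Among all tested genes 6.91% were called lower in Case and 6.09% higher. Of the 10 markers 4 were called lower and none higher, namely *Slc7a13* (log2 fold change -3.24 ± 0.45, SE), *Lrp2* (-0.98 ± 0.17), *Slc22a6* (-0.84 ± 0.22) and *Slc27a2* (-0.82 ± 0.13), and the median of the 10 was -0.44. Of 8 markers of other nephron segments 4 were called higher and none lower. Whether fewer tubule cells or less RNA per cell lay behind a lower level cannot be told apart in whole kidney, and the part of tubule content in these differences was not tested. The 5 listed Ugt1a genes called higher had the opposite direction to these 4 markers, but both sets are named by their direction, so nothing is read from this. Among markers of other tissues, no liver or leukocyte marker was called, *Hsd3b1* was the 1 adrenal marker called (1.72 ± 0.50), and adipocyte markers stayed below the filter, with summed FPKM of 0 to 0.408 in Case and up to 69.8 in Ctrl 3.

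**Figure D3:**
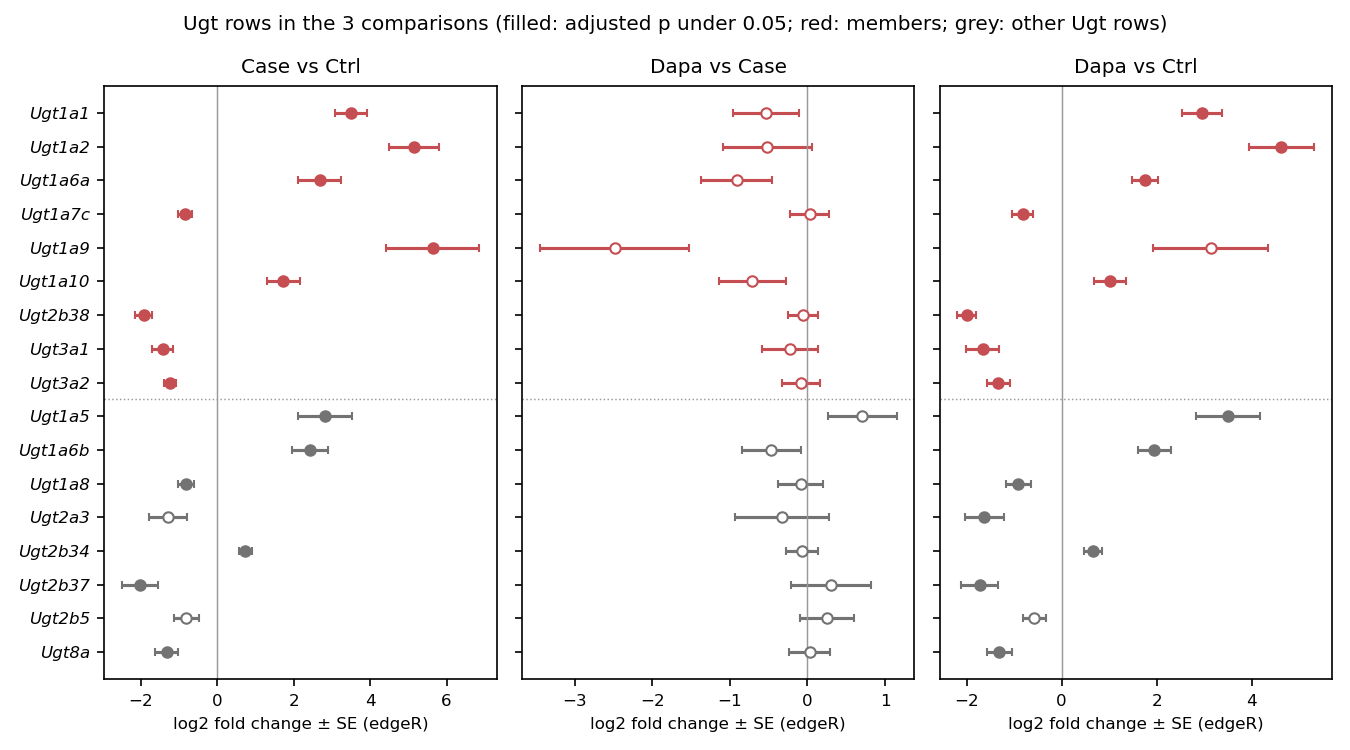
Log2 fold change ± SE of the 9 tested listed genes (red) and of the other tested Ugt rows (grey, below the dotted line) in the 3 comparisons, filled where the adjusted p was under 0.05. The values of Case against Ctrl run from -1.93 to 5.63 for the listed genes, and no point is filled in Dapa against Case.

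The Ugt1a rows were also summed. If each read of the common exons was given to 1 row, the sum is free of how such reads were divided, but whether they were counted once, several times or not at all is not given in the sources used here. In CPM, here counts scaled to library totals adjusted by TMM factors, it was 896, 805, 944, 702 and 783 in the Ctrl mice. In Case it ran from 625 over a median of 1439 to 1954, and in Dapa from 594 over a median of 950 to 2048. Both ranges overlapped with Ctrl, since Case 3 and Dapa 12 were each below every Ctrl mouse. The mean log2 difference was 0.63 ± 0.25 (SE) for Case against Ctrl, or 1.54-fold by geometric means. That is smaller in size than the log2 fold change of each of the 9 rows in the same comparison.

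The make-up of that sum differed as well. Its shares rest on the single rows, whose values are uncertain in how reads of the common exons were split. *Ugt1a7c* held 86.2% to 89.2% of the Ugt1a counts in Ctrl, 17.3% to 53.5% in Case and 31.7% to 61.3% in Dapa, with no overlap between Ctrl and either db/db group. *Ugt1a2* held 0.215% to 1.80% in Ctrl, 15.3% to 42.1% in Case and 9.74% to 40.7% in Dapa. *Ugt1a1* had a mean share of 1.86% ± 0.72 (SD, n = 5) in Ctrl, while Case stood at 12.5% ± 4.08 (SD, n = 6) and Dapa at 10.5% ± 2.40 (SD, n = 6). *Ugt1a6a* had a median share of 2.67% in Ctrl, 5.47% in Case and 6.86% in Dapa. *Ugt1a9* held at most 0.645% in Ctrl, 1.26% to 14.9% in Case and 0.0585% to 2.81% in Dapa, where it overlapped with Ctrl. Without the *Ugt1a7c* row the summed level was 87.2 to 125 CPM in Ctrl, 355 to 1486 in Case and 343 to 1398 in Dapa, a log2 difference of 3.03 ± 0.36 (SE) for Case against Ctrl.

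**Figure D4:**
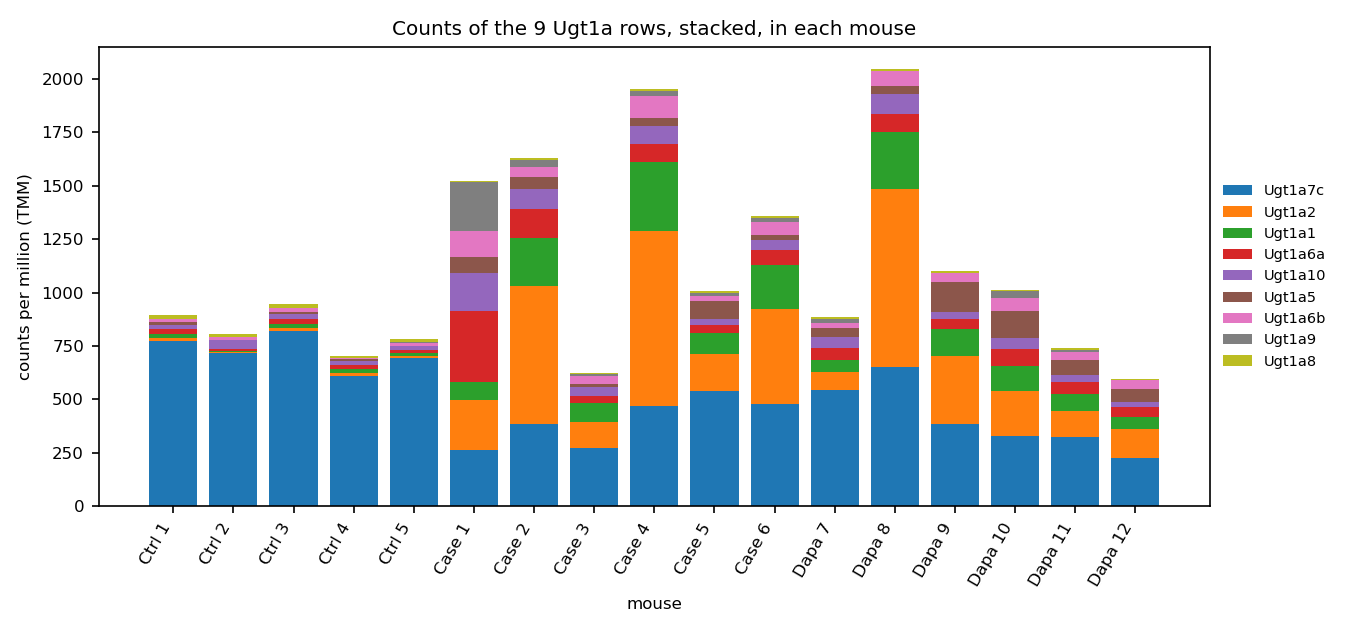
Counts of the 9 Ugt1a rows in each mouse in CPM, stacked, with the total bar height giving the sum. The *Ugt1a7c* row (blue) fills 86.2% to 89.2% of each Ctrl bar, and *Ugt1a2* (orange) fills 9.74% to 42.1% of each db/db bar.

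Individual db/db mice differed in which rows were high. Case 1 was highest of its group in *Ugt1a6a*, *Ugt1a9* and *Ugt1a10* but lowest in *Ugt1a1* and *Ugt1a7c*. Dapa 8 was highest of its group in *Ugt1a1* (125 FPKM), *Ugt1a2* (391 FPKM), *Ugt1a6a* (14.7 FPKM), *Ugt1a10* (34.5 FPKM) and *Ugt1a7c* (136 FPKM), yet had 0.567 FPKM of *Ugt1a9*, where Dapa 10 was highest with 13.2 FPKM. *Ugt3a1* and *Ugt3a2* put the 6 Dapa mice in the same order, from Dapa 7 to Dapa 12 at the bottom.

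The comparison of Dapa with Case asks what dapagliflozin changed in diabetic kidneys. None of the 9 tested genes was called by edgeR's quasi-likelihood test, by which 0% of all 14573 genes were called higher and 0% lower, and DESeq2 also called none of the 9 while it called 202 genes in all. At an unadjusted p under 0.05 the fit counted 1 of the 9, *Ugt1a9*, and 1880 of all genes. In FPKM no listed gene was without overlap between the groups, against 0.316% of all tested genes that were higher and 0.165% that were lower.

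The values of the 9 in this comparison ran from -2.49 to 0.03 on the log2 scale, with a median of -0.52 against -0.00634 for all genes tested. Nothing is read from this median, since the genes were chosen with differences of these Case mice known. Most of the 9 are also rows of the Ugt1a locus, whose reads may be shared. *Ugt1a9* was at -2.49 ± 0.96 (SE), with 0.352 to 13.2 FPKM in Dapa (median 2.52), 4 of 6 Dapa mice below all Case mice, and -1.04 without Case 1. *Ugt1a6a* was at -0.91 ± 0.46 and -0.24 without Case 1, and its Dapa values were 7.74 to 14.7 FPKM. *Ugt1a10* was at -0.71 ± 0.43, or -0.29 without Case 1, with 7.85 to 34.5 FPKM in Dapa. *Ugt1a1*, with 25.0 to 125 FPKM in Dapa, was at -0.54 ± 0.43, and *Ugt1a2*, with 40.1 to 391 FPKM, was at -0.52 ± 0.57. Both values moved with single mice. Without Dapa 8 they were -0.96 for *Ugt1a1* and -1.21 for *Ugt1a2*, and without Case 4 they were -0.25 and -0.19. *Ugt3a1* was at -0.23 ± 0.37, with -0.56 without Dapa 7 and -0.06 without Dapa 12. The remaining genes sat close to 0, with *Ugt3a2* at -0.08 ± 0.25, *Ugt2b38* at -0.06 ± 0.20 and *Ugt1a7c* at 0.03 ± 0.25. The summed Ugt1a rows differed by -0.37 ± 0.35 (SE). That none of these differences passed the threshold does not show that dapagliflozin left the genes unchanged.

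Set against Ctrl, the Dapa kidneys were close to the pattern of Case, and both comparisons share the same Ctrl mice. Of 14647 genes tested 14.2% were called higher and 14.9% lower, and of the 9 listed genes 4 were called in each direction. In FPKM 3 were higher and 3 lower without overlap, where 9.79% and 4.74% of all tested genes were. The log2 fold changes were 4.62 ± 0.69 (SE) for *Ugt1a2*, 2.96 ± 0.42 for *Ugt1a1*, 1.76 ± 0.27 for *Ugt1a6a* and 1.01 ± 0.34 for *Ugt1a10*. They were -1.99 ± 0.20 for *Ugt2b38*, with 149 to 261 FPKM in Dapa, -1.67 ± 0.35 for *Ugt3a1*, with 7.03 to 36.5 FPKM, -1.33 ± 0.25 for *Ugt3a2*, with 77.8 to 266 FPKM, and -0.82 ± 0.22 for *Ugt1a7c*, with 47.2 to 136 FPKM. Of the 10 proximal tubule markers 7 were called lower and none higher in this comparison, with a median of -0.54. Of the 8 markers of other nephron segments 5 were called higher, with a median of 0.65. Of the adrenal markers *Hsd3b1* was called (4.42 ± 0.82, SE), *Star* was not (0.84 ± 0.36), and *Cyp11a1* stayed below the filter. The part of these cell types in the differences was not tested. *Ugt1a9* was not called, at 3.14 ± 1.21 (SE), 6.33 without Ctrl 5 (called) and 2.43 without Dapa 10, the lowest and highest of these fits. For *Ugt1a10* the call did not hold when any of 7 mice was left out. These were Ctrl 1 (adjusted p = 0.0894), Ctrl 3 (adjusted p = 0.0807), Ctrl 4 (adjusted p = 0.0823), Ctrl 5 (adjusted p = 0.0899), Dapa 7 (adjusted p = 0.0544), Dapa 8 (adjusted p = 0.0787, with a log2 fold change of 0.68) and Dapa 10 (adjusted p = 0.0678), all in edgeR's fit.

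The table holds 11 further Ugt rows of a list of 12 fixed for the family, of which 8 were tested. Of all tested genes 6.09% were called higher and 6.91% lower in Case, and 14.2% and 14.9% in Dapa, each against Ctrl. Against Ctrl, 3 of these were called higher in Case, *Ugt1a5* (2.81 ± 0.71, SE), *Ugt1a6b* (2.42 ± 0.48) and *Ugt2b34* (0.73 ± 0.17), and 3 lower, *Ugt1a8* (-0.82 ± 0.21), *Ugt2b37* (-2.02 ± 0.47) and *Ugt8a* (-1.33 ± 0.29), the last of which encodes a galactosyltransferase of myelin lipids. *Ugt1a8* thus had the direction of *Ugt1a7c*, next to it in the locus, while the other neighbours of this pair, *Ugt1a9* and *Ugt1a6b*, were higher. *Ugt2b37* had the direction of *Ugt2b38*, with which it shares sequence. In Dapa against Ctrl the same 3 rows were called higher, *Ugt1a5* at 3.50 ± 0.67, *Ugt1a6b* at 1.95 ± 0.35 and *Ugt2b34* at 0.66 ± 0.18. The 3 lower rows were called again, *Ugt1a8* at -0.92 ± 0.26, *Ugt2b37* at -1.73 ± 0.38 and *Ugt8a* at -1.31 ± 0.27, together with *Ugt2a3* at -1.62 ± 0.40, which in Case was at -1.29 ± 0.51 and not called. None was called in Dapa against Case.

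Beyond the transferases, lists were read for the steps around them. Of 74 genes in all pathway lists, the further Ugt rows included, 61 were tested in Case against Ctrl, of which 9 were called higher and 12 lower (all tested genes, 6.09% and 6.91%), none in Dapa against Case by edgeR or DESeq2, and 12 higher and 18 lower of 60 tested in Dapa against Ctrl (all tested genes, 14.2% and 14.9%). With a term for the 8 mismatched libraries the counts in Case against Ctrl were 4 and 6, and without Ctrl 1, Ctrl 2 or Ctrl 3 the count of lower genes was 7 each time.

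Among 6 genes of UDP-glucuronate supply, *Ugdh* fell by 0.53 ± 0.11 (SE) on the log2 scale in Case. The phosphoglucomutase gene *Pgm1* rose by 0.56 ± 0.15, and the other 4 were not called. Of all tested genes 6.09% were called higher in Case and 6.91% lower. In Dapa against Ctrl *Pgm1* rose (0.54 ± 0.15) and *Pgm2* fell (-0.52 ± 0.13), where 14.2% of all tested genes were called higher and 14.9% lower. *Ugdh* was not called there (-0.41 ± 0.17). Among the genes that make or use free glucuronate, *Miox*, which makes it from inositol in the proximal tubule, measured 422 ± 17.8 FPKM (SD, n = 5) in Ctrl, with 258 ± 82.6 (SD, n = 6) for Case and 354 ± 51.6 (SD, n = 6) for Dapa, and it was called lower in both db/db groups (-0.78 ± 0.21 and -0.36 ± 0.11, SE). *Akr1a1*, a reductase of glucuronate, was called lower in Dapa alone (-0.35 ± 0.11). The difference between its 2 comparisons was not tested.

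Of 5 genes of export and cleavage, 1 was called higher and 2 lower in Case (all tested genes, 6.09% and 6.91%), and 2 in each direction in Dapa (14.2% and 14.9%), both against Ctrl. *Abcc4*, a pump that carries conjugates across the cell membrane, rose by 1.12 ± 0.13 in Case and 1.10 ± 0.10 in Dapa, from 8.61 ± 1.12 FPKM (SD, n = 5) in Ctrl to 19.7 ± 3.86 (SD, n = 6) and 19.8 ± 2.46 (SD, n = 6), without overlap between Ctrl and either group. *Abcc3*, a related pump, was called in Dapa (1.45 ± 0.50). *Abcg2*, a pump of the luminal membrane, was lower in both (-0.58 ± 0.12 in Case, -0.66 ± 0.13 in Dapa), as was *Gusb*, the lysosomal enzyme that cleaves glucuronides (-0.68 ± 0.14 and -0.65 ± 0.14).

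Of 15 transcription factors and receptors known to act on Ugt genes, 2 were called in Case, a count near the share of all tested genes called (6.09% higher and 6.91% lower), from which nothing is read. They were *Nr1i3* (CAR, 2.42 ± 0.54, SE) and *Nr1i2* (PXR, 0.77 ± 0.18), the xenobiotic receptors. *Nr1i3* was scarce, at 0.0538 ± 0.0239 FPKM (SD, n = 5) in Ctrl and 0.308 ± 0.195 (SD, n = 6) in Case. In Dapa against Ctrl *Nr1i3* (2.27 ± 0.39), *Nr1i2* (0.60 ± 0.20) and *Nfe2l2* (NRF2, 0.27 ± 0.09) were higher and *Hnf4a* (-0.57 ± 0.14) and *Esr1* (-0.94 ± 0.32) lower. *Ahr* (0.46 ± 0.20) was not called in Case.

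Targets of these receptors and the sulfotransferases are given by the genes called, beside 6.09% of all tested genes called higher and 6.91% lower in Case and 14.2% and 14.9% in Dapa, each against Ctrl. Of 4 tested genes of the aryl hydrocarbon receptor battery, *Tiparp* was lower in Case (-0.57 ± 0.12) and Dapa (-0.72 ± 0.12) and *Nqo1* higher in Dapa (0.61 ± 0.20). Not called in Case were *Cyp1b1* (0.74 ± 0.32), *Nqo1* (0.31 ± 0.11) and *Cyp1a1* (-0.02 ± 0.32). *Cyp1a1* was scarce, with means of 0.546 FPKM in Case and 0.516 in Ctrl. Of the genes of the CAR and PXR battery, 4 tested in Case and 3 in Dapa, *Por*, the reductase that serves cytochromes P450, was called lower (-0.53 ± 0.14 in Case, -0.55 ± 0.13 in Dapa). In the NRF2 battery the glutathione transferases *Gsta1* (3.25 ± 0.78 and 3.17 ± 0.50) and *Gsta4* (0.85 ± 0.17 and 1.22 ± 0.18) were higher, while the glutathione synthesis genes *Gclm* (-0.83 ± 0.17 and -0.98 ± 0.19) and *Gclc* (-0.28 ± 0.07 and -0.27 ± 0.08) were lower, with *Hmox1* lower in Dapa (-0.91 ± 0.25). Of 6 tested sulfotransferases, the other main conjugating family, *Sult1c2* was called lower (-0.45 ± 0.13 and -0.56 ± 0.10).

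**Figure D5:**
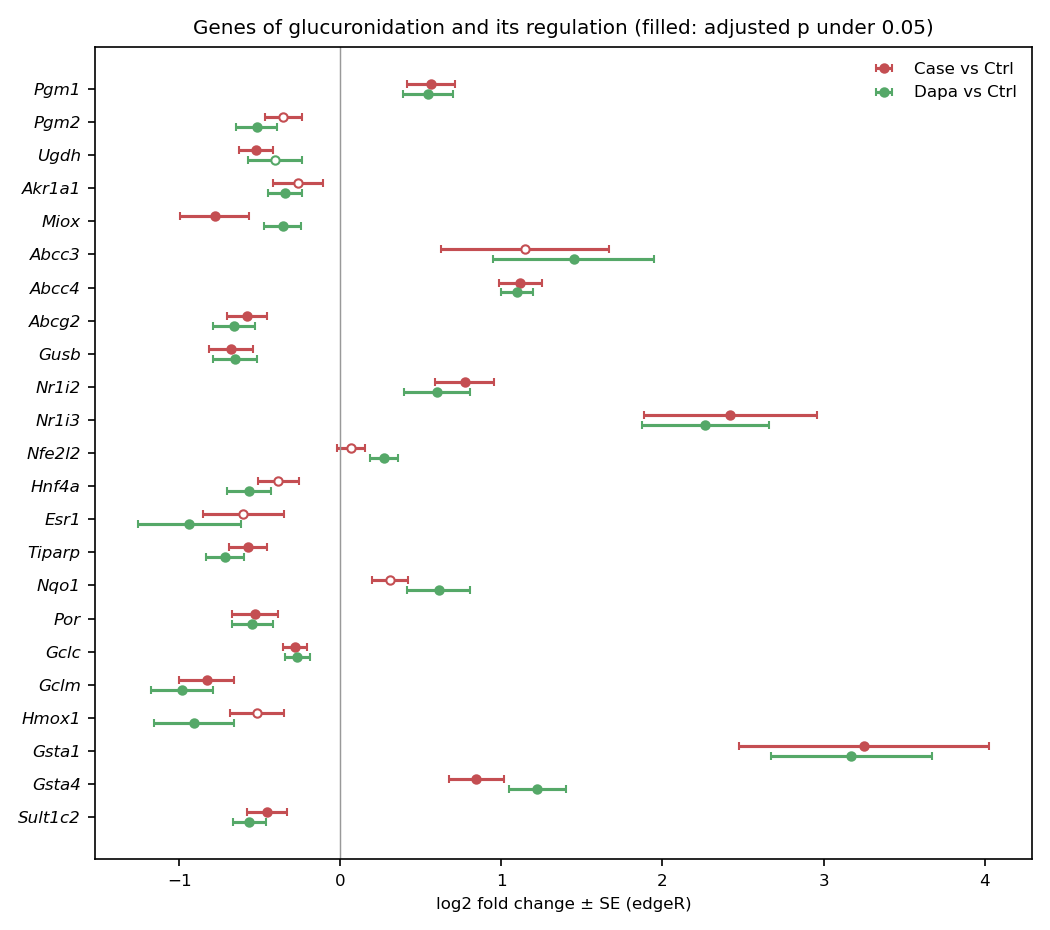
Log2 fold change ± SE of the genes of glucuronidation and its regulation named above as called, for Case against Ctrl (red) and Dapa against Ctrl (green), filled where the adjusted p was under 0.05. *Gsta1*, *Nr1i3*, *Abcc3*, *Abcc4* and *Gsta4* lie furthest to the right, and most other points are between -1 and 1.

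Promoters were read for the 9 listed genes with an entry in the RefSeq table of GRCm38.p6. The 250 bases before the start are shown for *Ugt1a9*, which was higher in Case, and for *Ugt2b38*, which was lower, each 5′ to 3′ on the strand of its gene. The start is that of RefSeq, and for *Ugt1a9* the window ends at 88070778, short of the start of the table's row at 88070800. The window of *Ugt1a7c* ends at 88095000, also short of its row start at 88095062. That of *Ugt3a1* (9279579 to 9279828) lies inside its row, which starts at 9273319, and those of *Ugt1a10* and *Ugt1a2* run slightly past their row starts. Capitals mark matches to the 4 motifs searched on both strands, which were GCGTG (the core of the xenobiotic response element), AGGTCA (a single site of nuclear receptor dimers), TTCNNNGAA (STAT) and TGACNNNGC (the core of the antioxidant response element).
Ugt1a9, chr1:88070529-88070778, plus strand: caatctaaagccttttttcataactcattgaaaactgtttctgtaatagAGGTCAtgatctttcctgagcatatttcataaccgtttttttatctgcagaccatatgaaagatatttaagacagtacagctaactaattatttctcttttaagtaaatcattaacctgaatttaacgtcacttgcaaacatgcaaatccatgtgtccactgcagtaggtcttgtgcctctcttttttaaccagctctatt
Ugt2b38, chr5:87424204-87424453, minus strand: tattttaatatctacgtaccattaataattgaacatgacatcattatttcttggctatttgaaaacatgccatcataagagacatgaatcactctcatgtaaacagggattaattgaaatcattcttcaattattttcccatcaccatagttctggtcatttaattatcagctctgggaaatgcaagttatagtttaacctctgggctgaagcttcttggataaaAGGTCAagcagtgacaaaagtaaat

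AGGTCA occurred in 4 of the 9 promoters, those of *Ugt1a9*, *Ugt1a7c*, *Ugt2b35* and *Ugt2b38*, and in 14.0% of all 32851 promoters of the same length. TTCNNNGAA occurred in *Ugt1a6a* and in 7.02% of all. GCGTG and TGACNNNGC, held by 28.2% and 10.2% of all promoters, had no match in these windows of the 9. Of the 4 genes with AGGTCA, *Ugt1a9* was higher in Case, *Ugt1a7c* and *Ugt2b38* were lower and *Ugt2b35* was not tested. Each of the promoters shown held a single motif hit.

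The genes most like each listed gene over the 17 mice are given as a description, by Spearman's rho of log2 CPM. All points share the contrast between Ctrl and db/db mice, which sets much of each rank order. *Ugt3a2* was nearest to *Psap* (0.99), *Galns* (0.98) and *Sufu* (0.97), and *Ugt3a1* to *Gjb2* (0.98), *Vti1a* (0.97) and *Jmjd8* (0.97). *Ugt2b38* was nearest to *Cd36*, *Proc* and *Acsm2* (0.94 to 0.95), and *Ugt1a7c* to *Dnajc12*, *Lrpap1* and *C1qtnf3* (0.95 to 0.96). *Ugt1a2* was nearest to *Tlk2* (0.93), *Gm10639* (0.91) and the glutathione transferase gene *Gsta2* (0.89), and *Ugt1a1* to *Tlk2* (0.90), *Gm10639* (0.90) and *Clca3a1* (0.89). *Ugt1a6a* was nearest to *Slc22a3* (0.95) and *Csgalnact2* (0.92). *Ugt1a10* was nearest to *Stag1*, *Uroc1* and *Gm6614* (0.87 to 0.89), and *Ugt1a9* to *Uroc1*, *Mob1a* and *Gm6614* (0.81 each). Between the listed genes rho was 0.98 for *Ugt3a1* with *Ugt3a2* and 0.97 for *Ugt1a1* with *Ugt1a2*.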

How the data were processed

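Whole-kidney RNA was sequenced from 5 Ctrl, 6 Case and 6 Dapa mice, 1 library each, after oligo(dT) enrichment. Alignment by the authors was to mm10 (HISAT2), and Stringtie gave the read counts per gene that were deposited. Deposited FPKM values equalled the count divided by library total and gene length, with a largest deviation of 0.00333%. Of 22561 genes, 3 with entries on 2 lines were left out. Library totals were 13039535 to 17779635, which leaves a gene with few counts poorly measured. Groups follow the labels. Tests used edgeR 4.0.16 under R 4.3.3. Genes were filtered by filterByExpr, scaled by TMM and tested by quasi-likelihood, and p-values were adjusted over all genes tested (Benjamini-Hochberg, threshold 0.05), each comparison on its own 2 groups. Alternatives were DESeq2 1.42.0, upper quartile and median ratio scaling, mitochondrial genes left out, no filter, all groups in 1 fit, limma 3.58.1 on log2(FPKM + 1) and log2(FPKM + 0.1), a replicate block, each mouse left out, and, chosen after seeing the data, a term for 8 libraries. For the summed Ugt1a rows they were total counts without TMM, upper quartile scaling, mitochondrial counts left out, the 6 listed Ugt1a rows alone, each mouse left out and, chosen after seeing the data, the sum without the *Ugt1a7c* row. The fits were tested on simulated data. Tables and figures used Python 3.11.15 and matplotlib 3.10.9. Exons, junctions and shared stretches came from GENCODE vM21 (GRCm38), whose gene coordinates matched the table for 79.5% of shared genes, and for 9 of the 10 listed ones (not *Ugt3a1*). Coordinates of genes are those of the table. The listed genes and the lists were chosen with earlier results of these data known. Named were the 10 genes, pathway genes called in any comparison, and the 3 genes most like each listed gene. Some genes that met this rule are not reported here. Genes named as not called were chosen after their values were seen. Protein sequences and chromatin data were not used here.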

Additional observations from a re-analysis of the deposited data

Results flagged for a closer look

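Single mice that stood apart from the rest of their group, by the gap to the nearest mouse relative to the range of the group, were found in 10 of 33 groups examined, where chance gives about 1 in 20 for normally distributed values. FPKM values are skewed, and in *Ugt2b35* a few counts beside zeros are enough, so the rate here may be higher. In Dapa 8 this held for *Ugt1a1* (125 FPKM, next 56.6), *Ugt1a2* (391 FPKM, next 142) and the summed Ugt1a rows (2048 CPM, next 1101). In Case 1 it held for *Ugt1a6a* (56.8 FPKM, next 23.3) and *Ugt1a9* (104 FPKM, next 15.1). Ctrl 2 was low in *Ugt1a2* (0.744 FPKM, next 5.17) and high in *Ugt1a10* (13.3 FPKM, next 6.91), and Ctrl 5 was high in *Ugt1a9* (2.23 FPKM, next 0.111). Ctrl 3 (0.0532 FPKM) and Dapa 12 (0.0913 FPKM) stood out in *Ugt2b35*, on 3 and 4 counts. The rows of 1 locus share reads, so these groups are not independent of each other. Case 1 and Dapa 12 are among the 8 libraries with mismatched entries, as are Ctrl 2 and Ctrl 3, and what sets them apart was not tested.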

How the results depend on the processing

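Over 189 alternative values of the 9 tested genes in Case against Ctrl, 183 kept direction and side of the threshold and 6 lost the call. Of these 6, 3 were lost with a replicate block, in *Ugt1a6a*, *Ugt1a7c* and *Ugt1a10*, and 3 for *Ugt1a10* with a mouse left out. No direction turned in either comparison with Ctrl. Genes called higher in Case numbered 5, 4 to 5 with a mouse left out and 3 with the replicate block, which called 3 lower. Pathway genes called in Case (9 higher, 12 lower) numbered 3 higher and 4 lower with the replicate block, 4 and 6 with the term for the mismatched libraries, 7 to 9 higher and 7 to 16 lower with a mouse left out (the lower count fell to 7 without Ctrl 1, Ctrl 2 or Ctrl 3). The numbers in the titles of Ctrl and Case did not pair the mice, with correlations of deviations of -0.08 to -0.03 for same-numbered mice. In Dapa against Ctrl, *Ugt1a10* lost its call in 9 of 20 alternatives and *Ugt1a9* gained one in 4, and pathway genes called higher (12) fell to 8 without Ctrl 2 or Ctrl 5. In Dapa against Case values near 0 turned sign, none of them called. With a mouse left out *Ugt1a7c* ran from -0.15 (without Dapa 8) to 0.15, *Ugt2b38* from -0.13 to 0.082 (without Case 5) and *Ugt3a2* from -0.32 to 0.052 (without Dapa 12). With the term for mismatched libraries *Ugt2b38* was 0.069 and *Ugt3a2* 0.013. The cause of these changes was not tested. The summed Ugt1a rows gave 0.50 to 0.83 for Case against Ctrl with a mouse left out and 0.54 to 0.71 under the planned other alternatives. Without the *Ugt1a7c* row, chosen after seeing the data, the sum gave 3.03 for Case against Ctrl, -0.54 for Dapa against Case and 2.49 for Dapa against Ctrl. On log2(FPKM + 1) *Ugt1a9* was at 3.43 in Case against Ctrl, since the added 1 is large beside its Ctrl level.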
